A study of Canis lupus familiaris with 29 samples.

Results

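The late phase of monolayer growth was followed in MDCKII cells carrying a knockdown of DENND5A (DENND5A-KD), between day 7 and day 4 on transwell inserts. MDCKII is an epithelial line from dog kidney. The comparison rests on 4 of the 29 RNA sequencing libraries of the study, chosen by their labels: DENND5A-KD 2D cultures at day 7, lines 1 and 2, and the same lines at day 4. DENND5A-KD cells at seeding (day 0, n = 2), wild-type 2D cultures at day 11 and day 4 (n = 3 each) and wild-type cells at seeding (day 0, n = 4) are given beside them. Every 2D culture was kept until past confluence. The labels do not say whether the numbers 1 and 2 mark clones, hairpins or guides, nor do they name separate cultures behind the replicates. The p-values therefore cover the spread between libraries alone, and that spread may be technical. It was estimated over all 29 libraries of the study, which include wild-type 3D cultures and cells with a knockdown of AVL9. No control line handled like the knockdown lines was analysed here, and no wild-type culture of day 7.

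DENND5A belongs to a family whose DENN domain activates RAB GTPases, the switches that steer vesicles to their target membranes. MDCK cells grown on a permeable filter divide until the sheet is confluent, then divide less, become columnar, build tight junctions and an apical brush of microvilli, and switch on transporters of the kidney tubule. Falling mRNA of the mitotic machinery and rising mRNA of tubule surface proteins are the usual readouts of that maturation.

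The values are FPKM, fragment counts scaled to transcript length and library size, so that levels of different genes can be set side by side. Of 24223 genes in the files, 10874 had at least 1 FPKM in at least 2 of the 4 libraries and were tested. Changes are differences of log2(FPKM + 1) with standard errors (SE) from limma, paired by line, and a gene passed at a Benjamini-Hochberg adjusted p under 0.05. At low FPKM this scale makes a change look smaller than it is. The sum of FPKM was 276666 to 324070 in the 4 libraries, and 10596 to 10841 genes reached 1 FPKM. Absolute depth is unknown. Relative depth, read from the steps between the lowest values, was 0.927 to 1.11 times that of wild-type day 0 replicate 2. Over all 29 libraries it was 0.444 to 1.66 times, lowest in replicate 1 of wild-type 2D day 4.

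The target of the knockdown was low at both days. DENND5A (ENSCAFG00000007156) had 4.38 and 4.04 FPKM in lines 1 and 2 at day 7, against 3.36 and 4.29 FPKM at day 4. Wild-type cultures had 14.4, 15.6 and 11.0 FPKM at day 11 and 10.9, 10.8 and 10.2 FPKM at day 4, so no knockdown library reached a wild-type one. At day 0 the knockdown lines had 2.02 and 1.88 FPKM, and wild-type cells 4.98 to 6.89 FPKM. The knockdown level thus rose from day 0 to day 4 (log2 difference 0.70 ± 0.15, adjusted p = 0.0009, limma). Between day 7 and day 4 of the knockdown the log2 difference was 0.12 ± 0.15 (SE, adjusted p = 0.999, limma). AVL9 (ENSCAFG00000003143), another DENN domain gene, had 23.2 and 22.8 FPKM at day 7 against 23.2 and 22.3 FPKM at day 4.

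Few genes changed past the test between day 7 and day 4. CDH16, MME, EVC, SCG5, ABTB1, TBXAS1, AQP3 and ASS1 rose, and OIP5, CENPA, MTFR2, CDC20, CASC5, KIF15, UHRF1 and a pair of genes with no symbol of their own fell. Of the 10874 genes, 17 passed (0.156%), 8 higher at day 7 (0.0736%) and 9 lower (0.0828%). At an unadjusted p under 0.05 there were 891 genes (8.19%), 520 of them higher (4.78%) and 371 lower (3.41%). Quantile normalization called 48 higher and 150 lower, and median-ratio scaling 36 higher and 120 lower, each including the 17. Other settings lost calls: of the 17, 11 passed with no term for line, 10 without the 5 wild-type libraries of lowest relative depth, 7 with no expression filter, 6 with a pseudocount of 0.1, and 0 where the 6 or the 4 DENND5A-KD libraries were fitted alone (8 and 10 other genes passed there). Differences of at least 1 on the log2 scale, passed or not, were found for 99 genes, 46 higher and 53 lower.

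The count depends on line 1. All 17 genes moved the same way in both lines, with no overlap between the day 7 and day 4 libraries, and all 17 moved further in line 1. Over all genes tested, 59.5% moved the same way in both lines, 40.2% had day 7 and day 4 libraries that did not overlap, and 67% moved further in line 1. Without the day 7 or the day 4 library of line 1, 0 genes passed limma's adjusted threshold (244 and 193 at an unadjusted p under 0.05). Without the day 7 library of line 2, 4 passed, and without the day 4 library of line 2, 160 passed. Left with 1 library, a group is assumed to vary like the other groups. The 17 kept their direction in each of these fits, which says little, since their day 7 and day 4 libraries did not overlap.

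CDH16 (kidney-specific cadherin, an adhesion protein of tubule epithelium) rose most among the genes that passed. It had 59.7 and 68.6 FPKM in lines 1 and 2 at day 7, against 6.09 and 28.2 FPKM at day 4. The log2 change was 2.18 ± 0.34 (SE, adjusted p = 0.0136, limma), with 3.099 in line 1 and 1.255 in line 2. This SE, like those below, takes its spread from all 29 libraries and not from the 2 lines. At day 7 the lines were close to each other, while at day 4 line 1 was far below line 2. Cells at seeding had 0.0717 and 0.0697 FPKM.

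MME encodes neprilysin, a peptidase of the brush border of proximal tubule cells. It had 5.81 and 4.50 FPKM at day 7, against 0.247 and 1.40 FPKM at day 4 (1.82 ± 0.28, adjusted p = 0.0136, limma). AQP3, the basolateral water and glycerol channel of the collecting duct, had 2.34 and 4.88 FPKM at day 7 against 0.26 and 1.66 FPKM at day 4 (1.27 ± 0.24, adjusted p = 0.0377, limma). Both day 7 libraries lay above both day 4 libraries for each gene.

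EVC encodes a protein at the base of the primary cilium that takes part in Hedgehog signalling. Its level was 11.1 and 11.5 FPKM at day 7, against 1.68 and 4.72 FPKM at day 4 (1.65 ± 0.32, adjusted p = 0.0377, limma). SCG5, a chaperone of the prohormone convertase PCSK2, stood at 11.9 and 12.03 FPKM at day 7, against 2.499 and 6.34 FPKM at day 4 (1.35 ± 0.25, adjusted p = 0.0374, limma). For both genes the lines differed at day 4 and nearly coincided at day 7. ABTB1, an ankyrin repeat and BTB domain protein, had 8.97 and 9.89 FPKM at day 7 and 4.14 and 6.70 FPKM at day 4 (0.73 ± 0.14, adjusted p = 0.0455, limma).

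TBXAS1 and ASS1 complete the genes that rose, and both lie at low levels. They were singled out after their values were seen, since their means stay under the 5 FPKM set for named genes. TBXAS1, thromboxane A synthase, had 3.92 and 4.04 FPKM at day 7 against 0.685 and 1.34 FPKM at day 4 (1.33 ± 0.22, adjusted p = 0.0153, limma). ASS1, argininosuccinate synthase of arginine synthesis, had 1.30 and 1.27 FPKM at day 7 against 0.239 and 0.383 FPKM at day 4 (0.80 ± 0.14, adjusted p = 0.023, limma). All 8 genes that rose had day 0 libraries below every day 4 library.

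Parts of the centromere, kinetochore and spindle were among the genes that fell. CENPA, the histone variant that marks centromeres, had 7.26 and 8.25 FPKM at day 7, against 23.4 and 15.6 FPKM at day 4 (-1.20 ± 0.24, adjusted p = 0.0455, limma). CASC5 (also KNL1), the kinetochore scaffold for checkpoint proteins, had 2.23 and 2.74 FPKM at day 7 against 8.34 and 4.84 FPKM at day 4 (-1.09 ± 0.19, adjusted p = 0.023, limma). In both genes line 1 was the higher line at day 4 and the lower one at day 7.

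CDC20 activates the anaphase-promoting complex, and KIF15 is a kinesin of the mitotic spindle. CDC20 had 2.64 and 3.05 FPKM at day 7, against 8.70 and 5.89 FPKM at day 4 (-1.09 ± 0.20, adjusted p = 0.0374, limma). KIF15 had 1.78 and 2.05 FPKM at day 7, against 6.57 and 4.05 FPKM at day 4 (-1.08 ± 0.16, adjusted p = 0.0136, limma). OIP5, which helps load CENPA onto centromeres and was singled out after its values were seen, had 0.797 and 0.849 FPKM at day 7 against 3.89 and 3.32 FPKM at day 4 (-1.33 ± 0.25, adjusted p = 0.0377, limma). No day 7 library reached a day 4 library in any of the 3 genes.

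UHRF1 binds newly replicated DNA and keeps its methylation. It had 6.19 and 6.90 FPKM at day 7, against 14.6 and 12.9 FPKM at day 4 (-0.97 ± 0.15, adjusted p = 0.0136, limma). MTFR2, a regulator of mitochondrial fission, had 6.19 and 7.89 FPKM at day 7 against 19.5 and 14.9 FPKM at day 4 (-1.17 ± 0.22, adjusted p = 0.0377, limma). The other 2 genes that fell have no symbol of their own. ENSCAFG00000016831 had 1.15 and 1.65 FPKM at day 7 against 4.73 and 2.93 FPKM at day 4. ENSCAFG00000030066, a copy of the short RNA U1, is listed at 0 in both day 7 libraries and at 3.16 and 1.44 FPKM at day 4. Of the 9 genes that fell, 8 had day 0 libraries above every day 4 library, the exception being the U1 copy.

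**Figure D1:**
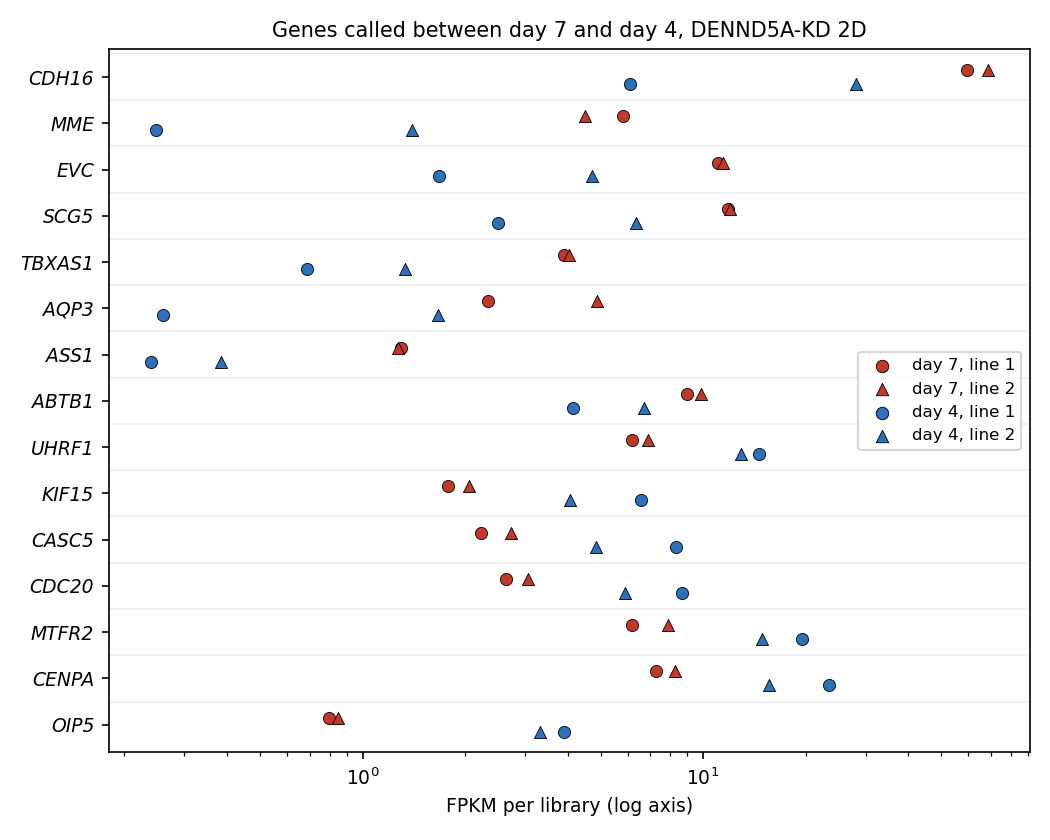
FPKM (log axis) of the 15 genes with a symbol of their own that passed the test, in DENND5A-KD libraries of day 7 (red) and day 4 (blue), circles for line 1 and triangles for line 2. In every gene both red points lie on one side of both blue points, and the day 4 points of line 1 lie farther from day 7 than those of line 2, as for CDH16 with 6.09 against 28.2 FPKM.

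Cell division genes as a group were lower at day 7. The mitosis list holds the cyclins, kinases, kinesins and checkpoint proteins of chromosome segregation, and all 24 of its 27 genes that were found in the files were tested. CDC20 alone passed (1 of 24, against 0.0828% of all genes called lower). All 24 had a negative log2 difference, an unadjusted p under 0.05 and day 7 libraries below both day 4 libraries. Of all genes tested, 3.41% were lower at that unadjusted p and 18.4% were lower with no overlap. The median log2 difference was -0.99, against 0.04 over all genes. Under quantile normalization 21 of the 24 passed and under median-ratio scaling 19. In bulk RNA, fewer dividing cells and less RNA per dividing cell cannot be told apart.

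Examples show the size of these differences. TOP2A, the topoisomerase that untangles sister chromosomes, had 10.5 and 14.3 FPKM at day 7, against 37.3 and 24.5 FPKM at day 4 (-1.24 ± 0.28, adjusted p = 0.0645, limma). BUB1, a spindle checkpoint kinase, had 5.75 and 8.20 FPKM at day 7 and 24.4 and 14.6 FPKM at day 4 (-1.34 ± 0.28, adjusted p = 0.0609, limma). CCNB2, a mitotic cyclin, had 4.11 and 5.85 FPKM at day 7, against 19.3 and 10.6 FPKM at day 4 (-1.37 ± 0.33, adjusted p = 0.0794, limma). These lie just beyond the threshold, and in each the day 4 library of line 1 is the highest of the 4. AURKB, the chromosomal passenger kinase, had the smallest difference of the list (-0.40 ± 0.17, adjusted p = 0.506, limma).

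Genes of DNA replication and nucleotide synthesis showed smaller differences. Of 25 tested, UHRF1 passed, all 25 had a negative difference, 19 had an unadjusted p under 0.05 and 24 did not overlap. Of all genes tested, 0.0828% passed lower, 3.41% were lower at that unadjusted p and 18.4% were lower with no overlap. The list median was -0.57. MCM5, a subunit of the replicative helicase, had 9.25 and 9.68 FPKM at day 7 against 18.4 and 17.9 FPKM at day 4 (-0.87 ± 0.19, adjusted p = 0.0622, limma). PCNA, the sliding clamp, had 14.8 and 18.2 FPKM at day 7 and 29.7 and 24.9 FPKM at day 4. CTPS1, which makes CTP, had 6.20 and 6.97 FPKM at day 7 and 6.57 and 7.40 FPKM at day 4 and was the gene whose groups overlapped. Quantile normalization called 12 of the 25 lower and median-ratio scaling 9.

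Levels over the whole time course put these differences in order. The median FPKM of the mitosis list in DENND5A-KD lines 1 and 2 started at 31.8 and 28.6 on day 0. On day 4 it was 17.0 in line 1 and 10.6 in line 2, and on day 7 it was 5.68 in line 1 and 7.37 in line 2. In wild-type cells it was 25.1 to 35.1 on day 0 (n = 4). The 3 libraries of wild-type day 4 had 6.46, 5.27 and 3.73, and those of day 11 had 11.8, 12.4 and 8.34. Day 4 of the knockdown thus lay between day 0 and day 7, whereas in wild type day 4 was the lowest of the 3 times. The replication list ran the same way, with medians in the knockdown of 29.2 and 30.6 FPKM on day 0. Lines 1 and 2 then had 14.6 and 13.0 FPKM on day 4, and 7.53 and 8.18 FPKM on day 7.

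**Figure D2:**
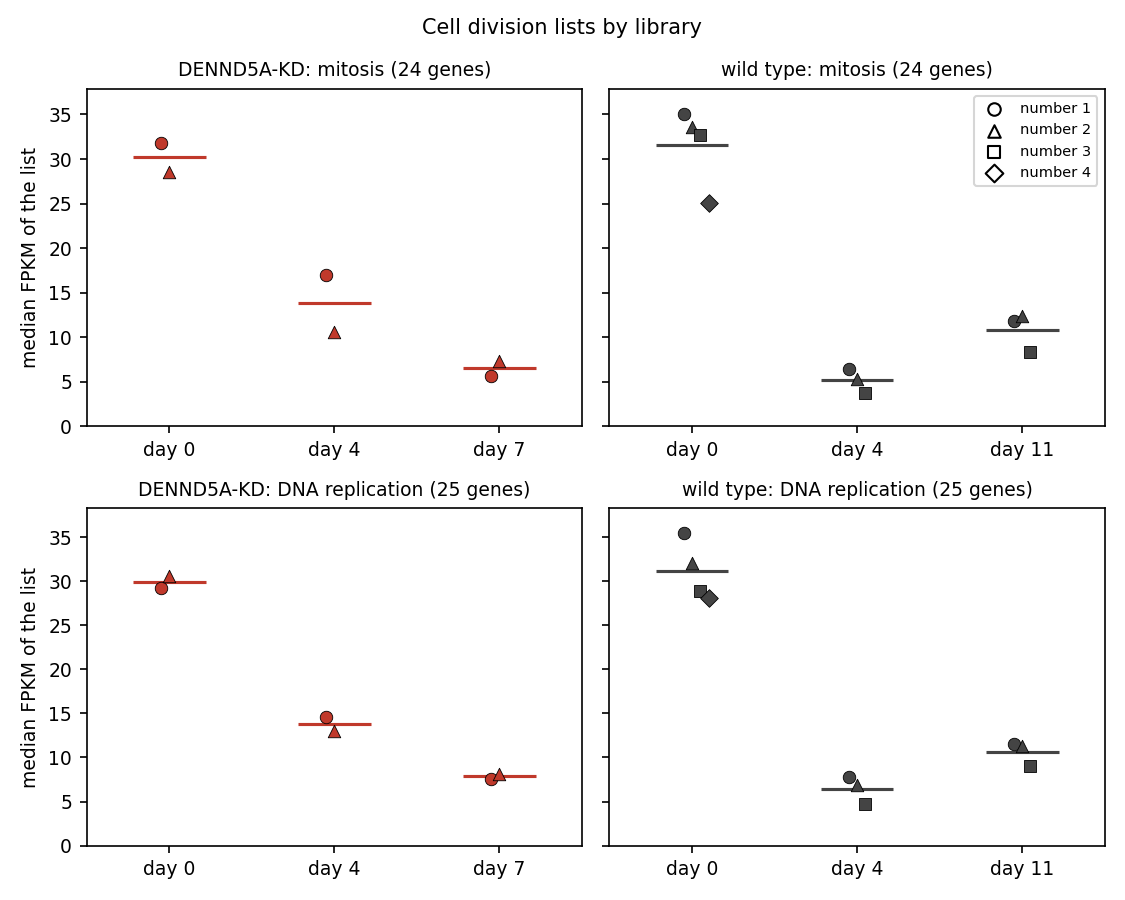
Median FPKM over the mitosis list (upper panels) and the DNA replication list (lower panels) in each library of DENND5A-KD cells (left) and wild-type cells (right) by day, with the group mean as a line and the symbol giving the line or replicate number. The knockdown falls at each step to 5.68 and 7.37 FPKM for mitosis at day 7, while wild type is lowest at day 4 and stands at 8.34 to 12.4 FPKM at day 11.

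Inhibitors and partners of the cyclin-dependent kinases did not share that pattern. Of 14 tested CDK inhibitors and D and E cyclins, 0 passed limma's adjusted threshold, with a list median of -0.04. At an unadjusted p under 0.05, 1 was higher and 2 lower, against 4.78% and 3.41% of all genes. CDKN2B, the inhibitor p15 that TGF-beta induces, had 3.34 and 3.35 FPKM at day 7 and 13.3 and 6.95 FPKM at day 4 (-1.29 ± 0.59, adjusted p = 0.556, limma). CCNG1, a p53-induced cyclin, had 53.03 and 60.5 FPKM at day 7 and 42.4 and 48.3 FPKM at day 4, and CCND2, a D cyclin, 39.6 and 45.2 FPKM at day 7 and 34.5 and 42.2 FPKM at day 4.

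Line 1 changed more than line 2 across the transcriptome. The median log2 change over all genes tested was 0.093 in line 1 and -0.025 in line 2. The SD of the log2 change over genes was 0.394 in line 1 and 0.262 in line 2, and the changes of both lines correlated across genes with r = 0.422, where genes are not independent replicates and each library pair shares its line. The median change of the mitosis list was -1.47 in line 1 and -0.54 in line 2, and all 24 genes moved further in line 1. For DNA replication the medians were -0.67 and -0.41, with 20 of 25 genes further in line 1. Total FPKM of the day 4 library of line 1 was the lowest of the 4, at 276666, and its relative depth was 0.927, also the lowest. The part of depth in the difference between lines was not tested.

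**Figure D3:**
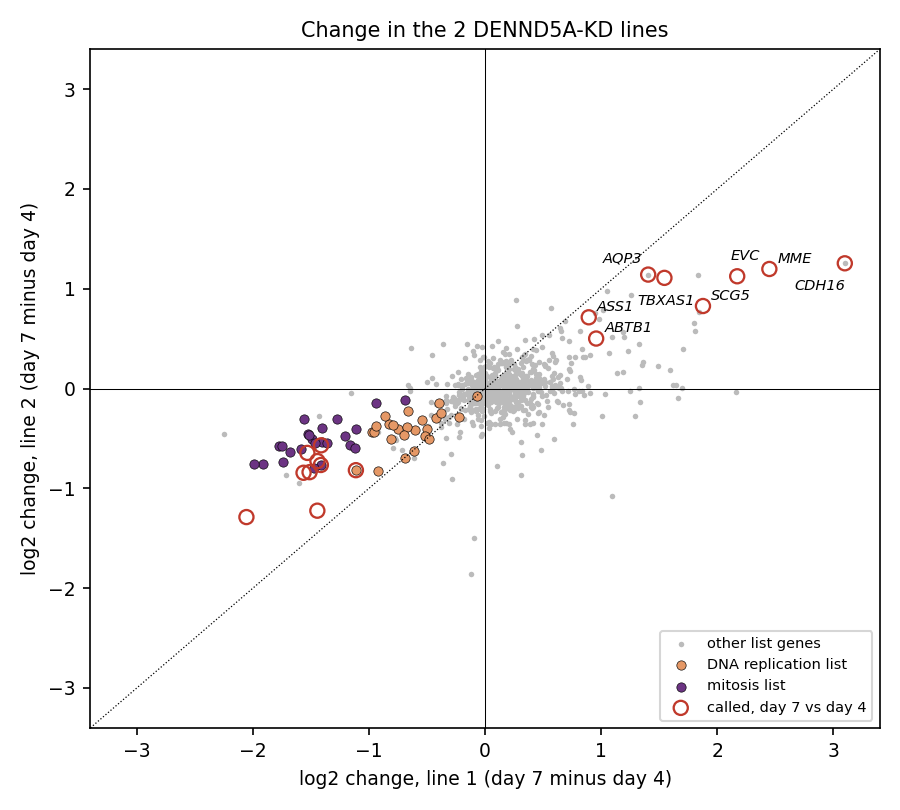
Log2 change between day 7 and day 4 in line 1 (horizontal) and line 2 (vertical) for the list genes tested and the 17 genes that passed (red rings), with the dotted line marking equal change. All 24 mitosis genes (purple) are negative in both lines and lie on the line 1 side of the dotted line, with medians of -1.47 in line 1 and -0.54 in line 2.

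Hypoxia and glycolysis genes differed between lines. The 20 tested members had a median of 0.80 in line 1 and -0.03 in line 2, and 0 passed. At an unadjusted p under 0.05, 9 were higher, against 4.78% of all genes. Quantile normalization called 1 of the 20 higher. BNIP3, a mitophagy receptor induced by hypoxia, had 138 and 176 FPKM at day 7, against 29.9 and 180 FPKM at day 4 (1.07 ± 0.35, adjusted p = 0.259, limma). EGLN3, an oxygen-sensing prolyl hydroxylase, had 29.2 and 34.2 FPKM at day 7 and 9.02 and 30.0 FPKM at day 4. NDRG1 had 373 and 406 FPKM at day 7 and 209 and 412 FPKM at day 4, and the glycolytic enzyme PGAM1 had 292 and 359 FPKM at day 7 and 176 and 400 FPKM at day 4. In each of these 4 genes the day 4 library of line 1 was the lowest of the 4, and that of line 2 was close to the day 7 libraries or above them. Without that library of line 1 the list median was -0.03.

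Wild-type cultures between day 11 and day 4 went another way. In wild type 325 genes passed (2.99%), 284 higher at day 11 (2.61%) and 41 lower (0.377%). Without either replicate 1 or replicate 2 of day 11 the wild-type count was 0 (1158 and 1097 at an unadjusted p under 0.05, limma), without replicate 3 of day 4 it was 3, and without replicate 3 of day 11 it was 775. Of the 24 mitosis genes, 24 had a positive difference in wild type (median 0.99) and 22 passed as higher. Of the 25 replication genes, 24 had a positive difference (median 0.59) and 12 passed as higher. The late changes of knockdown and wild type correlated across genes with r = -0.256. No library is shared between them, but day 7 and day 11 differ, so genotype and length of culture cannot be told apart.

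The difference between the late changes, knockdown minus wild type, passed for 369 genes (3.39%), 102 positive (0.938%) and 267 negative (2.46%). Without day 4 replicate 1 of the knockdown 39 genes passed, without its day 7 replicate 1 69, without wild-type day 11 replicates 1 and 2 in turn 231 and 236, and without wild-type day 11 replicate 3 563. Of the mitosis list 23 of 24 were negative past the test (median -1.98), the exception being AURKB (adjusted p = 0.0535, limma), and of the replication list 17 of 25. At an unadjusted p under 0.05 the difference was negative for 24 of 24 mitosis genes, against 8.39% of all genes.

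The 6 largest positive differences that passed at 5 FPKM or more belonged to CDH16, SCG5, MME, CSF2, RBP4 and ODF3B. For CDH16, SCG5 and MME the knockdown change above is part of the difference. CDH16 had 37.3, 35.99 and 40.2 FPKM in wild type at day 11, against 66.1, 39.6 and 49.6 FPKM at day 4, and its difference was 2.59 ± 0.44 (SE, adjusted p = 0.00193, limma). SCG5 had 3.77, 4.33 and 7.15 FPKM in wild type at day 11, against 11.6, 10.6 and 11.5 FPKM at day 4 (difference 2.40 ± 0.32, adjusted p = 0.000613, limma). MME had 1.93, 1.75 and 4.59 FPKM at wild-type day 11 and 2.47, 2.96 and 3.73 FPKM at day 4 (difference 2.00 ± 0.37, adjusted p = 0.003, limma). For SCG5 the wild-type groups did not overlap, and for MME they did.

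RBP4, the carrier of retinol in blood, had 90.2 and 166 FPKM in the knockdown at day 7 and 37.1 and 86.3 FPKM at day 4, and in wild type 23.3, 18.3 and 29.1 FPKM at day 11 and 37.0, 50.5 and 39.6 FPKM at day 4 (difference 1.93 ± 0.37, adjusted p = 0.00412, limma). CSF2, the cytokine GM-CSF, had 4.10 and 5.85 FPKM in the knockdown at day 7 and 1.53 and 2.97 FPKM at day 4, and in wild type 1.90, 2.04 and 2.26 FPKM at day 11 against 5.68, 6.98 and 4.28 FPKM at day 4 (difference 2.00, adjusted p = 0.00524, limma). ODF3B, a relative of sperm tail proteins, differed by 1.93 (adjusted p = 0.0271, limma). None of these 3 passed within the knockdown alone.

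The 6 largest negative differences that passed at 5 FPKM or more belonged to GPNMB, CTSK, MT1E, CCNA2, KIF20A and TOP2A. GPNMB, a lysosomal glycoprotein, had 12.4 and 11.6 FPKM in the knockdown at day 7 and 39.7 and 23.2 FPKM at day 4, and in wild type 87.9, 93.1 and 27.1 FPKM at day 11 against 21.0, 21.8 and 10.5 FPKM at day 4 (difference -3.06, adjusted p = 0.00215, limma). CTSK, a lysosomal protease, had 19.5 and 20.1 FPKM in the knockdown at day 7 and 44.4 and 40.3 FPKM at day 4, and in wild type 60.4, 67.9 and 18.9 FPKM at day 11 and 13.8, 16.1 and 11.3 FPKM at day 4 (difference -2.64, adjusted p = 0.0085, limma). In both genes replicate 3 of wild-type day 11 lay far below replicates 1 and 2. Of the 35 genes of the lysosome list, 2 had a positive and 1 a negative difference past the test, with a list median of -0.05. Over all genes tested, 0.938% were positive and 2.46% negative past the test. The metallothionein MT1E differed by -2.59 (adjusted p = 0.0175, limma). CCNA2, a cyclin of S phase and mitosis, and KIF20A, a kinesin of cytokinesis, each differed by -2.44, and TOP2A by -2.42.

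**Figure D4:**
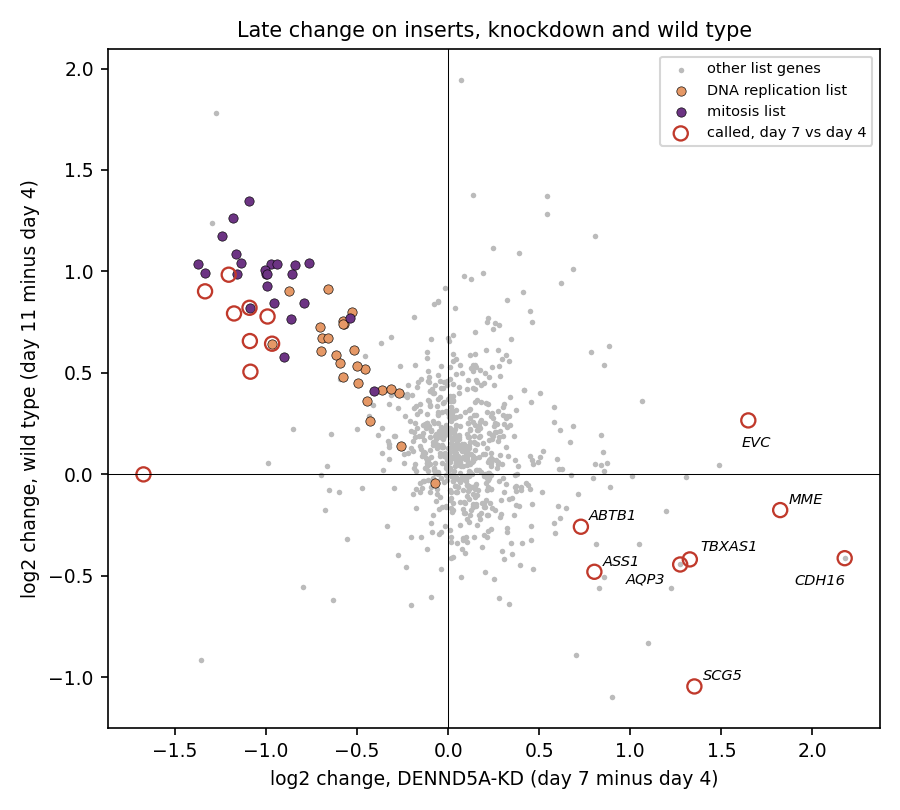
Log2 change in DENND5A-KD cells between day 7 and day 4 (horizontal) and in wild-type cells between day 11 and day 4 (vertical), for the list genes tested and the 17 genes that passed in the knockdown (red rings). The 24 mitosis genes (purple) sit at upper left, with medians of -0.99 in the knockdown and 0.99 in wild type, and the genes that rose in the knockdown lie to the right, CDH16 farthest at 2.18.

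Apical and tubule genes beyond those named were mostly higher at day 7 without passing. List members named from here on at an unadjusted p under 0.05 were picked after their values were seen. At that p, 4.78% of all genes tested were higher and 3.41% lower, the share to set beside each list count below. Calls below are those of the main fit. Quantile normalization called as higher 2 apical genes and 1 each of the transcription factor, ERK and EGF family, NF-kB and lysosome lists. Median-ratio scaling called 1 apical, 1 lysosome and 2 tubular transport genes higher, and 1 each of the TGF-beta and organic transporter lists lower. Of 18 tested genes of the apical membrane and lumen, 0 passed, 6 higher and 1 lower had an unadjusted p under 0.05, and the median was 0.35 (0.44 in line 1, 0.14 in line 2). EZR (ezrin), which ties microvilli to actin, had 252 and 277 FPKM at day 7 and 176 and 235 FPKM at day 4 (0.37 ± 0.13, adjusted p = 0.331, limma). The proteolipid MAL, of apical transport, had 396 and 432 FPKM at day 7 and 318 and 435 FPKM at day 4, an overlap. The annexin ANXA13 was the lower member, with 28.7 and 15.7 FPKM at day 7 and 35.1 and 30.3 FPKM at day 4.

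Of 21 tested genes of tubular ion and water transport, AQP3 passed (1 of 21, against 0.0736% of all genes called higher), and the median was 0.07. Among 18 organic ion and ABC transporters 0 passed. At an unadjusted p under 0.05, 1 was higher and 2 lower, against 4.78% and 3.41% of all genes. The taurine transporter SLC6A6 had 136 and 139 FPKM at day 7 and 64.4 and 108 FPKM at day 4, and the vitamin transporter SLC5A6 had 100.5 and 114 FPKM at day 7 and 94.0 and 119 FPKM at day 4.

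Of 31 tested kidney and epithelial transcription factors 0 passed and 5 higher had an unadjusted p under 0.05, GATA3, EHF, TFAP2A, GRHL3 and PAX8. The share of all genes higher at that unadjusted p was 4.78%. GATA3, a factor of the nephric duct, had 17.9 and 20.6 FPKM at day 7 and 10.4 and 16.3 FPKM at day 4 (0.52 ± 0.14, adjusted p = 0.123, limma). KLF5, an epithelial zinc finger factor, had 108 and 125 FPKM at day 7 and 95.1 and 104 FPKM at day 4. Both day 7 libraries lay above both day 4 libraries for each gene.

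Junction and polarity genes lay near the median of all genes. Of 24 adherens junction and desmosome genes CDH16 passed (against 0.0736% of all genes called higher), with a list median of 0.01. The lists of claudins (8 tested, median 0.03), tight junction scaffolds and occludin family (15, 0.02), polarity complexes (16, 0.04) and exocyst and apical trafficking (17, -0.06) had 0 genes at an unadjusted p under 0.05 and 0 past limma's adjusted threshold. CLDN7 had 142 and 154 FPKM at day 7 and 154 and 166 FPKM at day 4, and F11R (JAM-A) had 145.0 and 150 FPKM at day 7 and 142 and 161 FPKM at day 4. The polarity kinase PRKCI had 55.3 and 59.4 FPKM at day 7 and 53.2 and 57.9 FPKM at day 4. The day 7 and day 4 libraries overlapped in each of these 3 genes.

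Vesicle traffic genes related to the target showed small differences. Of 24 tested DENN domain genes 0 passed and 1, DENND6B, had an unadjusted p under 0.05, with 5.06 FPKM in both lines at day 7 and 3.06 and 4.57 FPKM at day 4. The median was 0.05. Of 32 RAB GTPases 0 passed (1 higher at an unadjusted p under 0.05, median 0.05). The share of all genes higher at that unadjusted p was 4.78%. RAB17, an epithelial RAB of apical recycling, had 6.17 and 6.01 FPKM at day 7 and 2.26 and 5.28 FPKM at day 4, and RAB10 had 94.3 and 95.6 FPKM at day 7 and 99.7 and 94.3 FPKM at day 4. Of 34 genes of the primary cilium 0 passed and 2 higher had an unadjusted p under 0.05, with a median of 0.23 in line 1 and -0.02 in line 2. PKHD1, fibrocystin of the cilium, had 8.27 and 7.11 FPKM at day 7 and 4.11 and 5.53 FPKM at day 4.

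Lipid and interferon lists had small positive medians in both lines. In line 1 the median was 0.10 for sterol, 0.04 for fatty acid and 0.21 for interferon genes, against 0.093 over all genes tested. In line 2 it was 0.25, 0.12 and 0.23, against -0.025 over all genes tested. Of 20 sterol synthesis genes 0 passed (1 higher at an unadjusted p under 0.05) and 13 were higher with no overlap (21.7% of all genes). The median was 0.19, against 0.50 in wild type, where 20 were positive and 5 passed as higher (2.61% of all genes). SQLE, squalene epoxidase, had 145 and 162 FPKM at day 7 and 142 and 139 FPKM at day 4. Of 27 interferon-stimulated genes 0 passed (1 higher at an unadjusted p under 0.05) and 13 were higher with no overlap. The median was 0.17, against 0.59 in wild type, where 24 were positive and 9 passed as higher (2.61% of all genes). OAS3, a sensor of double-stranded RNA, had 14.0 and 16.6 FPKM at day 7 and 10.2 and 11.4 FPKM at day 4. In the difference between knockdown and wild type 0 genes of either list passed limma's adjusted threshold, and the median was -0.27 for sterol and -0.35 for interferon genes. Of 11 genes of fatty acid synthesis 0 passed and 0 had an unadjusted p under 0.05 (median 0.09).

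Signalling lists held a few larger differences that did not pass. Of 19 TGF-beta, activin and BMP genes 4 higher and 4 lower had an unadjusted p under 0.05, against 4.78% and 3.41% of all genes. Of the lower ones, LTBP1, which stores latent TGF-beta in the matrix, had 80.1 and 83.1 FPKM at day 7 and 137 and 120 FPKM at day 4 (-0.64 ± 0.17, adjusted p = 0.123, limma). Of the higher ones, FST (follistatin, which binds activin) had 16.0 and 26.0 FPKM at day 7 and 3.77 and 11.3 FPKM at day 4 (1.49 ± 0.59, adjusted p = 0.434, limma).

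Of 14 NF-kB targets and cytokines 2 higher and 1 lower had an unadjusted p under 0.05, against 4.78% and 3.41% of all genes. PTGS2, cyclooxygenase 2, had 14.4 and 19.8 FPKM at day 7 and 3.29 and 11.2 FPKM at day 4 (1.31 ± 0.35, adjusted p = 0.123, limma), and the chemokine CCL2 had 0.904 and 1.71 FPKM at day 7 and 8.07 and 2.73 FPKM at day 4. Counts at that unadjusted p were 2 higher of 15 YAP and TAZ targets, 2 higher and 1 lower of 18 ERK feedback and EGF family genes, 1 higher of 14 p53 targets, and 0 of 14 immediate early genes and of 14 Wnt targets. None of these passed limma's adjusted threshold. ERRFI1, a feedback inhibitor of EGF receptor, had 20.6 and 32.2 FPKM at day 7 and 9.95 and 19.5 FPKM at day 4. CYR61, a YAP target, had 135 and 153 FPKM at day 7 and 71.9 and 120 FPKM at day 4, and EGR1, an immediate early factor, had 84.7 and 88.9 FPKM at day 7 and 74.8 and 90.0 FPKM at day 4.

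Matrix and cytoskeleton genes also gave 0 calls with limma in the main fit. Quantile normalization called 1 of the actin and keratin genes lower. Of 12 mesenchymal markers 3 higher and 1 lower had an unadjusted p under 0.05, against 4.78% and 3.41% of all genes. Their median was 0.41 in line 1 and -0.01 in line 2. FN1, fibronectin, had 57.1 and 52.6 FPKM at day 7 and 24.3 and 36.4 FPKM at day 4 (0.86 ± 0.26, adjusted p = 0.191, limma), whereas VIM, vimentin, had 526 and 613 FPKM at day 7 and 727 and 737 FPKM at day 4. At that unadjusted p there was 1 higher among 16 collagens, laminins and basement membrane genes, 1 lower among 24 integrin and focal adhesion genes, and 1 lower among 21 actin and keratin genes. PODN, a matrix proteoglycan, had 107 and 98.8 FPKM at day 7 and 32.0 and 74.9 FPKM at day 4.

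Of 35 lysosome and proton pump genes 4 higher and 1 lower had an unadjusted p under 0.05, against 4.78% and 3.41% of all genes. ATP6V1B1, a proton pump subunit of intercalated cells, had 38.5 and 45.9 FPKM at day 7 and 21.0 and 36.8 FPKM at day 4, and the lower member was GPNMB. In the retinoid list RBP4 was the 1 of 13 at that unadjusted p. Of 7 genes of the alpha-arrestin list 1 higher had an unadjusted p under 0.05, MLXIPL, and TXNIP, which restrains glucose uptake, had 431 and 438 FPKM at day 7 and 243 and 414 FPKM at day 4.

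Of 28 ATF4 targets and tRNA synthetases 2 higher had an unadjusted p under 0.05, against 4.78% of all genes. DDIT4, an inhibitor of mTORC1, had 17.8 and 16.0 FPKM at day 7 and 8.06 and 7.65 FPKM at day 4 (1.01 ± 0.31, adjusted p = 0.189, limma), a difference seen in both lines. There were 2 higher of 14 heat shock genes, 1 higher of 13 NRF2 targets, and 0 of 17 endoplasmic reticulum chaperones, 22 respiratory chain genes, 25 mitochondrial ribosomal proteins and 21 cytosolic ribosomal proteins. None of these lists had a gene past limma's adjusted threshold. NQO1, the NRF2 target quinone reductase, had 71.0 and 84.7 FPKM at day 7 and 193 and 103 FPKM at day 4. Cytosolic ribosomal proteins had a median of 0.42 in line 1 and 0.05 in line 2. Of the 21, 11 were higher with no overlap, against 21.7% of all genes tested. The list median was 0.24, and it was 0.09 under quantile normalization and 0.20 under median-ratio scaling. RPL8 had 747 and 763 FPKM at day 7 and 565 and 727 FPKM at day 4.

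**Figure D5:**
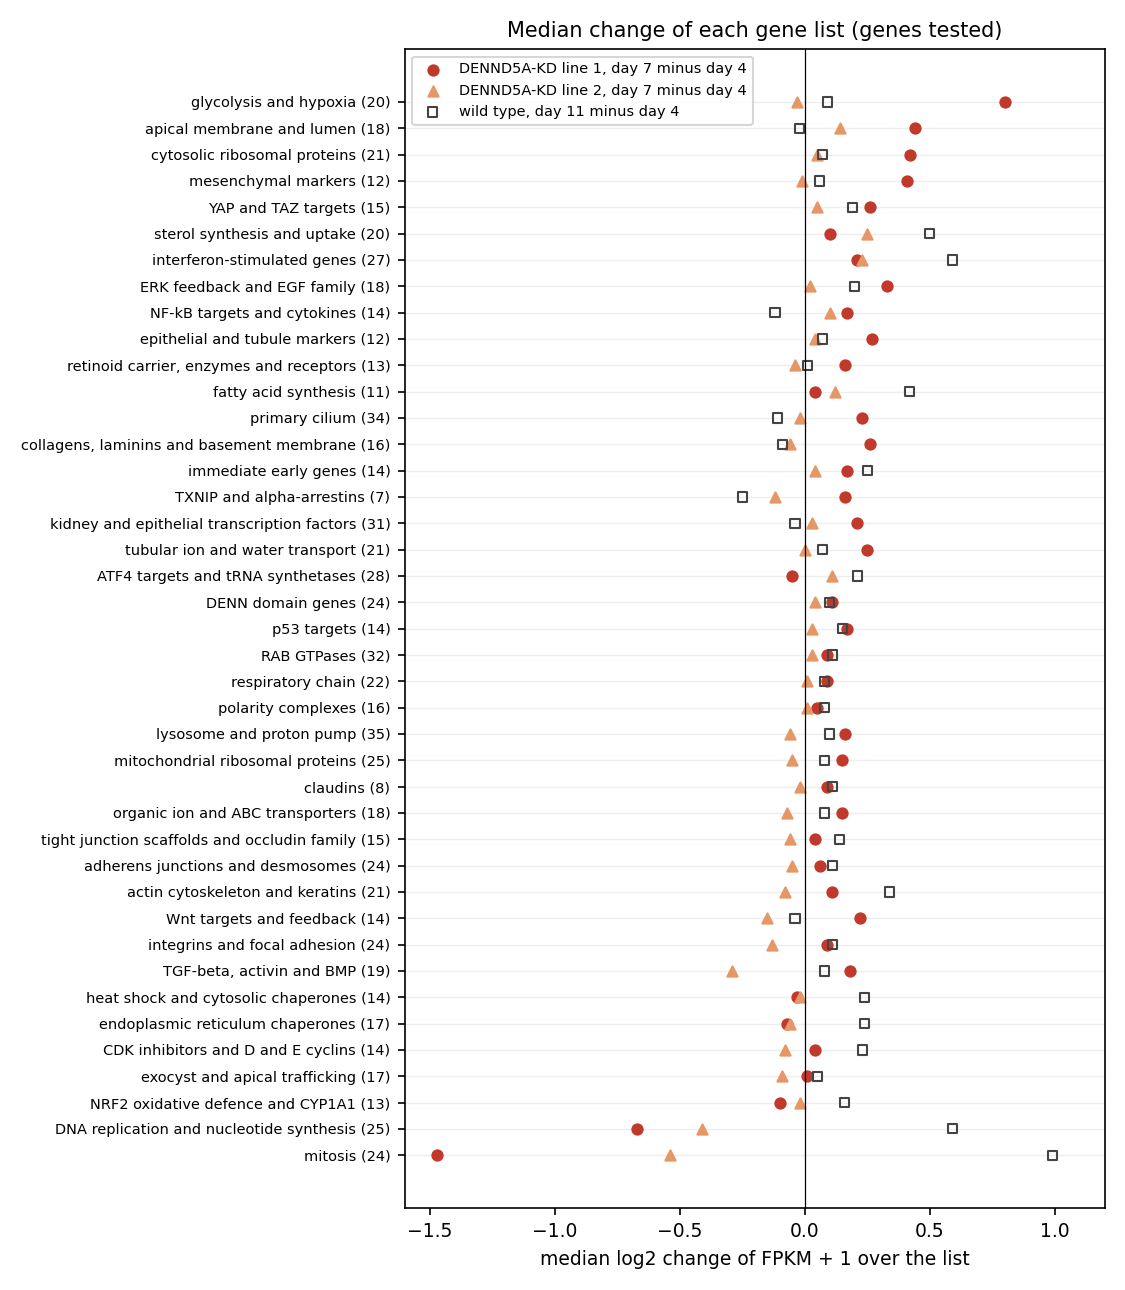
Median log2 change of each gene list with at least 5 tested members (number in brackets) in DENND5A-KD line 1 (red circles) and line 2 (orange triangles) between day 7 and day 4, and in wild type between day 11 and day 4 (open squares). Mitosis and DNA replication are negative in both lines and positive in wild type, and glycolysis and hypoxia genes stand at 0.80 in line 1 and -0.03 in line 2.

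Further genes with large fold changes at an unadjusted p under 0.05 did not pass. Of those given here, KRT85, snoMBII-202 and TMEM258 had values that varied widely within a wild-type group. KRT85, a hair keratin, had 6.59 and 5.82 FPKM at day 7 and 0.107 and 0.0322 FPKM at day 4, and 0.0373 to 4.85 FPKM among wild-type day 11 libraries (2.75 ± 0.99, adjusted p = 0.342, limma). The short RNA snoMBII-202 is listed at 128 and 133 FPKM at day 7 and at 0 in both day 4 libraries, and in wild type at 455 FPKM in 1 day 11 library and 0 in the other five. TMEM258, a subunit of the oligosaccharyltransferase, had 1.74 and 2.64 FPKM at day 7 and 9.27 and 13.2 FPKM at day 4 (-1.93 ± 0.63, adjusted p = 0.258, limma). FABP3, a fatty acid carrier, had 181 and 231 FPKM at day 7 and 48.9 and 123 FPKM at day 4. TSPAN1, a tetraspanin, had 20.5 and 29.1 FPKM at day 7 and 7.04 and 14.6 FPKM at day 4, and CDC42EP5, an effector of CDC42, had 8.15 and 5.31 FPKM at day 7 and 1.16 and 4.16 FPKM at day 4.

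The 12 epithelial and tubule markers found summed to 2055 and 2312 FPKM at day 7 and 1679 and 2228 FPKM at day 4. CDH16 passed among them, against 0.0736% of all genes called higher. Of 11 fibroblast markers 10 were listed at 0 in all 4 libraries, COL1A1, COL1A2, COL3A1, DCN and LUM included, and FBLN1 made up the sums of 6.48 and 8.44 FPKM at day 7 and 8.08 and 9.07 FPKM at day 4. Of 11 endothelial markers FLT1 alone reached 1 FPKM, and EMCN, ERG and PECAM1 were at 0, with sums of 24.6 and 25.1 FPKM at day 7 and 26.6 and 28.2 FPKM at day 4. Of 12 leukocyte markers none reached 1 FPKM and 8 were at 0 throughout, PTPRC, CD3E and ITGAM included, with sums of 0.363 and 0.258 FPKM at day 7 and 0 and 0.162 FPKM at day 4.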

How the data were processed

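The authors deposited 1 table of FPKM values per library over Ensembl dog genes. HISAT2 2.1.0, Cufflinks 2.2.1 and the builds canFam3 and CanFam3.1 are named in the submitters' processing notes, with no role given, and libraries came from a stranded mRNA kit, per the labels' protocols. Whether antisense or duplicated genes shared fragments is not given in the sources used here.

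Log2(FPKM + 1) was fitted with limma 3.58.1 (eBayes with trend) in R 4.3.3 over all 29 libraries, with 1 mean for each of 13 groups and a fixed term for the line number of the knockdown libraries. Tests were 2-sided with Benjamini-Hochberg adjustment over 10874 genes. Lines pair because a number marks the same cell line at each day, though deviations correlated across genes with an r of 0.064 only. Wild-type numbers (r of 0.053 to 0.086) were not paired. The pipeline was tested on simulated data. Python 3.11.15 with pandas 2.3.3, numpy 2.4.6 and matplotlib 3.10.9 did the rest.

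The comparison and its 44 gene lists were chosen with earlier results of these data known. The lists cover cell division, CDK regulators, immediate early, YAP, ERK, NRF2, junction, polarity, apical, trafficking, DENN, RAB, cilium, lipid, glycolysis, respiration, ribosome, stress, p53, interferon, NF-kB, TGF-beta, Wnt, mesenchymal, matrix, adhesion, cytoskeleton, transport, lysosome, transcription factor, retinoid, arrestin, heat shock and cell type genes. Named were DENND5A, AVL9, up to 12 genes in each direction with a symbol of their own, a higher-group mean of 5 FPKM or more, the same direction in both lines and no overlap (filled up at an unadjusted p under 0.05), the 6 largest differences from wild type in each direction, and members of lists, up to 4 that passed or up to 2 with the highest FPKM. A further 1302 tested genes lack a unique symbol and enter the counts only. Alternatives were quantile and median-ratio scaling, a pseudocount of 0.1, no filter, other blocks, smaller fits, and leaving out libraries. Some list members that this rule names are not reported here.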

Additional observations from a re-analysis of the deposited data

How the results depend on the processing

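In each alternative run, every one of the 17 genes that changed in DENND5A-KD cells between day 7 and day 4 kept its direction. That could hardly come out otherwise, since for all 17 the day 7 and day 4 libraries did not overlap. The number that passed did not hold. Higher and lower calls were 48 and 150 with quantile normalization, 36 and 120 with median-ratio scaling, 2 and 4 with a pseudocount of 0.1, 12 and 5 with no expression filter, 5 and 8 with no replicate block, 13 and 67 with a replicate block that also takes wild-type numbers, 5 and 3 in the 6 DENND5A-KD libraries alone, 7 and 3 in the 4 alone, and 6 and 7 without the 5 shallow wild-type libraries. The main 17 were all among the calls of both scalings and of the wild-type block, 6 were with the small pseudocount, 7 with no filter, 11 with no block, 10 without the shallow libraries, and 0 in the fits on 6 or 4 libraries. Leaving out each knockdown library in turn gave 0 to 84 higher and 0 to 76 lower. For wild type between day 11 and day 4 (284 and 41), higher calls were 462 with the wild-type block, and lower calls 199 with quantile normalization, 145 with median-ratio scaling, 7 with the small pseudocount, 67 with no filter, 11 without the shallow libraries and 22 with no block. Leaving out a wild-type library gave 0 to 609 higher and 0 to 166 lower. For the difference of knockdown and wild type (102 and 267), positive calls were 272, 233, 48 and 53 with quantile normalization, median-ratio scaling, the small pseudocount and no block, and negative calls 406 with quantile normalization. Leaving out each library gave 3 to 181 positive and 36 to 384 negative. The cause of these shifts was not tested. For the knockdown change of 112 single genes, 1310 values stayed on their side of the threshold, 117 lost it and 29 gained it. Only the 17 genes that passed in the main fit could lose it. Most of the 1310 values passed in neither fit, so they are no measure of how stable the calls were. Among values that passed in the main or the alternative fit, 0 changed sign. Sign changes of values that passed in neither were not counted. Absolute depth is unknown.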
